A study of Anas platyrhynchos with 6 samples.

Results

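Some liver genes of laying ducks differed several-fold between libraries of the same ammonia group, and did so in both groups. The 37 genes described here were chosen by their measured FPKM and are annotated genes with a mean of 10 to under 1000 FPKM (read counts divided by exon length and by the library's total) over 6 libraries. In each of them (maximum + 1)/(minimum + 1) was at least 3 within low ammonia and also within high ammonia, and the ranges of the groups overlapped. They are 37 of the 4962 annotated genes in that range of FPKM, of 16450 annotated genes and 23440 genes in all. The rule used the values of all 6 libraries, so membership, the spread within groups and the overlap are a description and support nothing.

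The libraries came from liver of Shanma laying ducks (Anas platyrhynchos, variety domestica). A total of 176 birds, chosen at 150 days of age, were divided at random between air with 5 ± 5 ppm ammonia (low ammonia) and air with 75 ± 5 ppm (high ammonia), and were exposed for 30 days from day 200 to day 230 on the same diet. Each group has 3 libraries and had its own room, so room and ammonia cannot be told apart. The labels do not say that each library is 1 bird, so the spread between libraries may be technical in part.

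The liver of a laying duck makes the proteins and lipids of the yolk under the control of oestrogen, along with most plasma proteins. It also takes up ammonia and turns it into uric acid, the main nitrogen waste of birds. Levels of many liver transcripts are known to differ with feeding, laying and time of day. The identifiers of the 37 genes matched no entry of the gene table used here, so their roles are not stated, and their sequences and positions were not analysed here. Only 3 identifiers are printed, for the pair with the highest mean FPKM and the pair with the largest smaller within-group ratio, which share a gene. Every other gene is called by its exon length in bases, which was recovered from the values and is known up to a whole factor.

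Total counts were 23584934, 21472246 and 16516390 in low ammonia libraries 1, 2 and 3 (low 1, low 2 and low 3), and 20491048, 13415827 and 16679497 in high ammonia libraries 1, 2 and 3 (high 1, high 2 and high 3). The 37 genes held between 0.0561% of the counts (low 1) and 0.180% (low 3).

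Spread of at least 3 within a group was uncommon among annotated genes of this abundance. It was met by 3.1% of the 4962 genes within low ammonia (154 genes) and by 2.36% within high ammonia (117 genes). Both conditions were met by 40 genes (0.806%), and with overlapping groups by the 37 genes (0.746%). The 40 genes were 26.0% of those variable within low ammonia and 34.2% of those variable within high ammonia. The median ratio of the 37 genes was 7.01 in low ammonia and 4.91 in high ammonia. In the other 4925 genes these medians were 1.38 and 1.27. The ratio was at least 10 in both groups for 12 genes. Just inside the threshold stood the genes of 897, 363 and 639 bases, with smaller ratios of 3.02, 3.04 and 3.08, and just outside stood genes of 912, 2378 and 615 bases, with 2.97, 2.96 and 2.95.

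**Figure D1:**
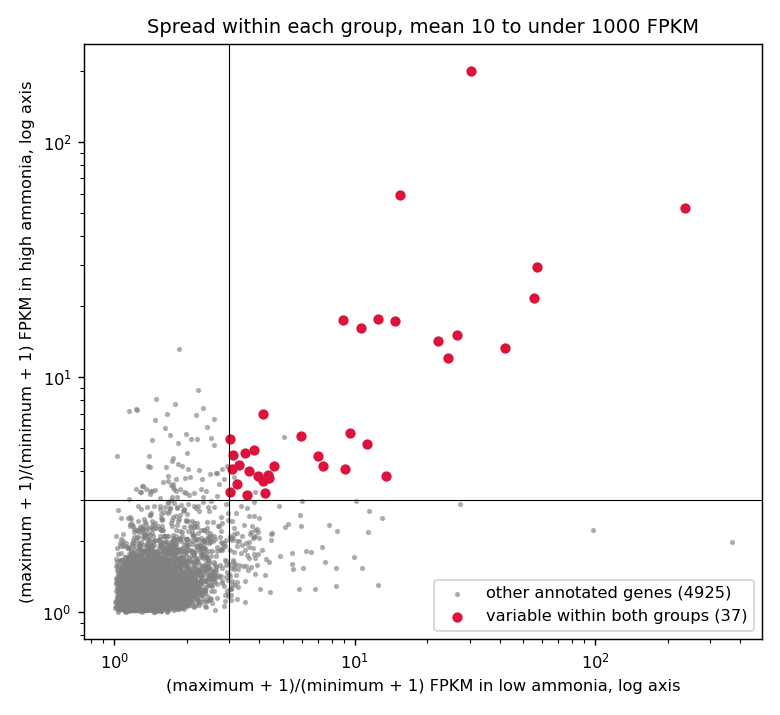
Spread within low ammonia (x axis) and within high ammonia (y axis), each as (maximum + 1)/(minimum + 1) of the FPKM of 3 libraries on log axes, for 4962 annotated genes; lines mark a ratio of 3. The 37 genes (red) lie in the upper right, where the rule puts them, up to ratios of 237 in low and 200.3 in high ammonia.

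The count of 37 leans on single libraries, as a range over 2 libraries cannot exceed one over 3. Without low 1, low 2 or low 3 the rule found 17, 22 and 26 genes, of which 16, 21 and 26 were among the 37. Without high 1, high 2 or high 3 it found 19, 22 and 25 genes, of which 19, 21 and 23 were among the 37.

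The 37 genes were short. Their median exon length was 606 bases, from 68 to 2440, against 1194 bases in the other 4925 genes (quartiles 643 and 1928). Under 300 bases stood 11 of the 37 (29.7%), against 8.49% of the others. By length class, 2.56% of genes under 300 bases met the rule, 0.843% from 300 to under 1000 bases, and 0.418% from 1000 bases up. A short gene reaches a given FPKM with fewer counts: the gene of 68 bases, at a mean of 13.5 FPKM, had at most 36 counts in a library. The part of length and counting in the choice of these genes was not tested. The lowest count of a gene over the 6 libraries had a median of 53 and was under 10 in 6 genes. Intervals and limits for a count of 0 given below cover counting error only. Mean FPKM differed little from that of the other genes, with medians of 24.9 and 26.6.

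High against low ammonia was compared with limma over all 11717 genes with enough signal, on log2(FPKM + 1). Of the 37 genes 0 passed an adjusted p of 0.05 (Benjamini-Hochberg over all genes), against 0.785% of all genes tested (92 of 11717). The rule asked for overlapping groups with a wide spread, so nothing is read from this count. At an unadjusted p of limma below 0.05 stood 0 of the 37 and 2013 of the 11717 genes. The rule favours a low count at this threshold too. Leaving out a library can remove part of the spread and overlap that the rule asked for. Nothing is therefore read from this 0 or from the counts with 1 library left out. Without low 1, low 2 or low 3 the count was 3, 3 and 0 of the 37. Without high 1, high 2 or high 3 it was 4, 1 and 4. Over all 11717 genes from 1397 to 2055 passed when 1 library was left out. At the adjusted threshold limma without a trend of variance also called 0 of the 37. The median log2 difference (high minus low) was -0.14 over the 37 genes and -0.13 over all genes, and the median standard error was 0.80 against 0.20. Of the 37, 16 had a higher and 21 a lower mean log2 value in high ammonia. Over all genes the quartiles of the log2 difference were -0.34 and 0.08, and median-ratio scaling moved its median up by 0.13. The share of all genes by direction was not computed, so nothing is read from the counts of 16 and 21. The gene nearest to a call was that of 2440 bases, at 13.9 ± 11.7 FPKM in low and 36.9 ± 27.3 FPKM in high ammonia (mean ± SD of 3 libraries). Its log2 difference was 1.34 with a standard error of 0.66, and limma gave it an adjusted p of 0.341. The lowest log2 difference was that of the gene of 1505 bases, at -1.59 (SE 0.96, limma adjusted p = 0.431).

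Which genes varied together was described by Pearson's r of log2(FPKM + 1) over the 6 libraries, n = 6 for each pair. All pairs share the same libraries and their depths, and no p is given. Of 666 pairs, 19 (2.85%) had r of at least 0.9 and 8 (1.20%) had r of at most -0.9. Among 12125350 pairs of the other 4925 genes these shares were 1.78% and 0.828%, and the median r was 0.04 in the 37 genes and 0.10 in the others. The 37 genes thus did not share 1 common profile. Average linkage at a height of 0.3 split them into 14 patterns, numbered by size. Patterns 1 and 2 have 6 and 5 genes, 6 patterns have 3 genes each, 2 have 2 genes each, and 4 genes stood alone. All 19 pairs with r of at least 0.9 fell within a pattern, which a division made from the same r favours. The smallest size to describe had been set at 4 genes, and the patterns of 3 genes were taken in after their values were seen.

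**Figure D2:**
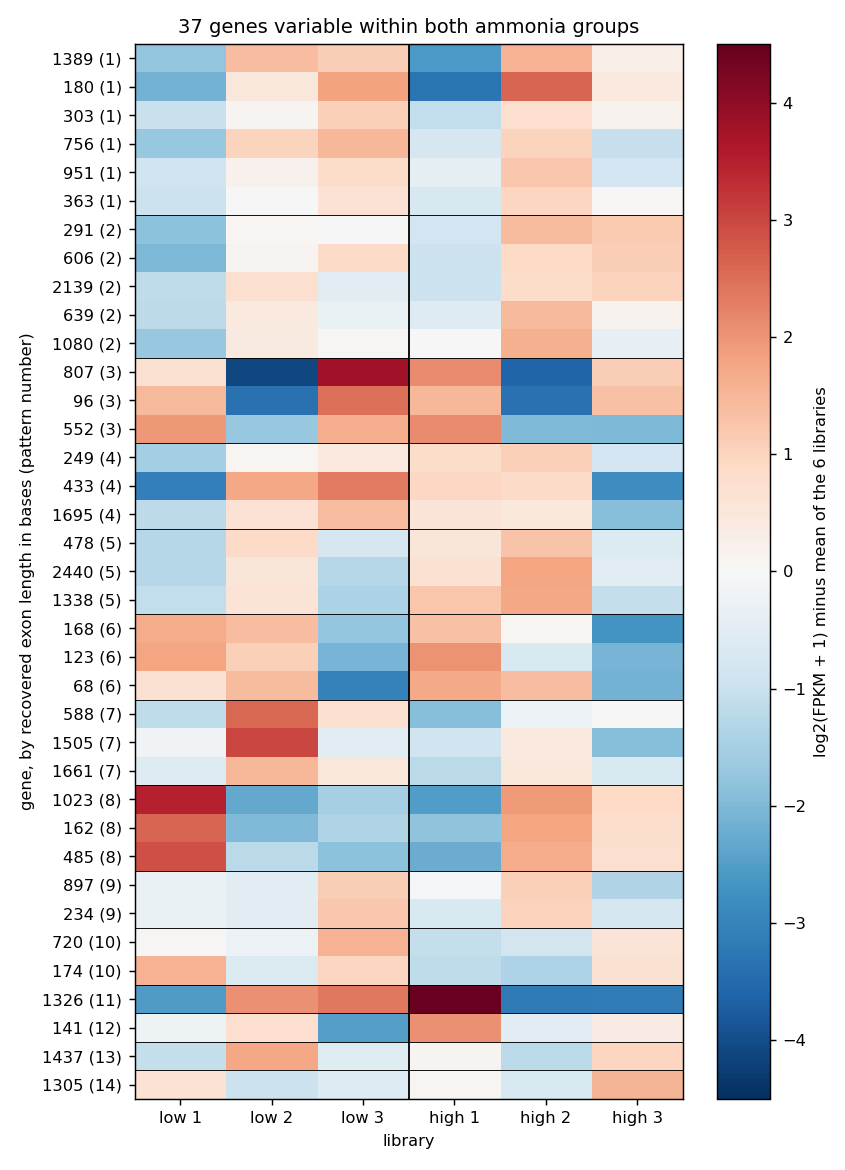
Level of each of the 37 genes (rows, by recovered exon length in bases, with the pattern number) in the 6 libraries (columns), as log2(FPKM + 1) minus the gene's mean over the 6 libraries. Horizontal lines part the 14 patterns, and the vertical line parts low from high ammonia; high and low libraries differ from pattern to pattern.

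**Figure D3:**
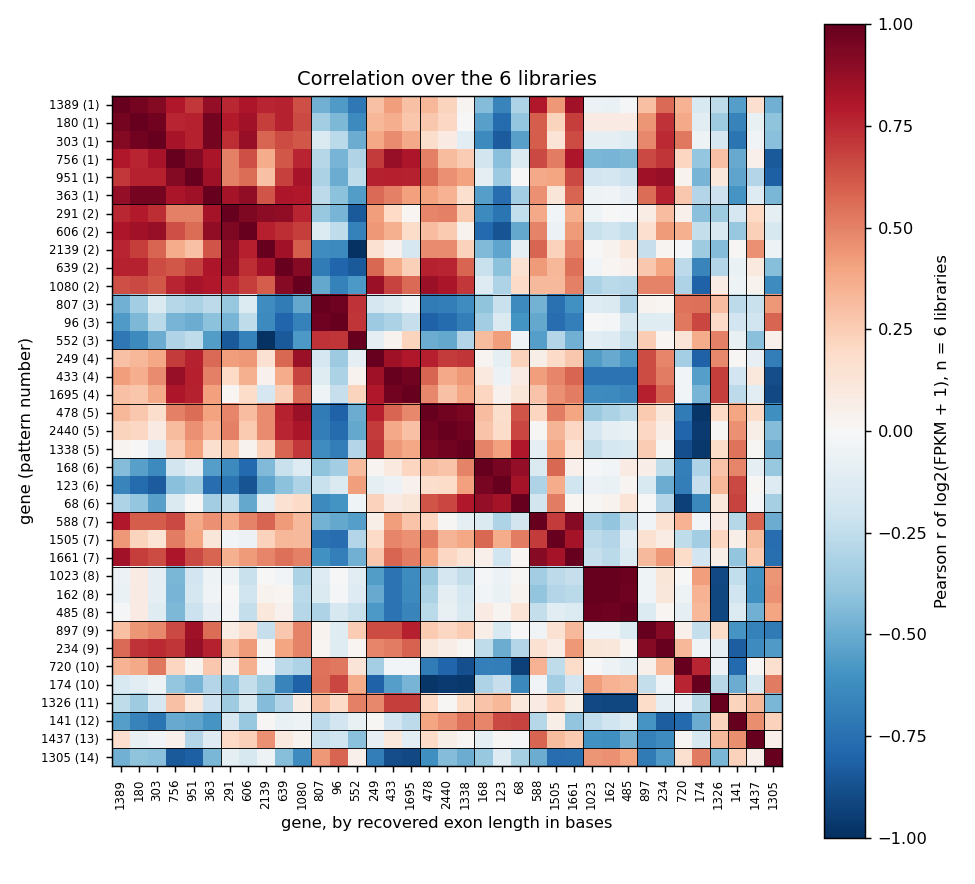
Pearson's r of log2(FPKM + 1) over 6 libraries between all pairs of the 37 genes, ordered by pattern. Red blocks on the diagonal are the patterns, and pattern 8 (genes of 1023, 162 and 485 bases) has r from 0.97 to 1.00.

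Pattern 8 was the tightest, with 3 genes that were high in low 1, high 2 and high 3 and near 0 elsewhere. The gene of 1023 bases stood at 103, 0.865 and 2.31 FPKM in low 1, low 2 and low 3, and at 0.620, 34.3 and 16.1 FPKM in high 1, high 2 and high 3. Its counts were 2479, 19 and 39, and 13, 471 and 274. Low 1 was thus the highest of all and high 1 the lowest, with the other low ammonia libraries close to it. The gene of 162 bases stood at 72.5, 2.01 and 3.74 FPKM in low ammonia and at 2.41, 40.03 and 19.98 FPKM in high ammonia. The gene of 485 bases stood at 55.5, 2.30 and 1.12 FPKM in low ammonia and at 0.604, 23.2 and 11.6 FPKM in high ammonia. All 3 genes put the same libraries into the high and the near-0 class. Their pairwise r was 0.97, 0.98 and 1.00, and with values centred within each ammonia group the range was 0.98 to 1.00. In the low class each gene had 6 to 39 counts, and there the order of the libraries differed between the genes.

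The mean of pattern 8 had r of at least 0.95 with 1 of the other 4925 annotated genes (0.0203%), and with 7 annotated genes when those from a mean of 1 FPKM up are counted. Of these 7, 2 had a ratio of 3 in both groups. One, of 129 bases, stood at 28.3, 0.722 and 0 FPKM in low ammonia and at 0, 8.09 and 3.72 FPKM in high ammonia, from at most 86 counts; a count of 0 allowed up to 1.41 FPKM in low 3 and 1.13 FPKM in high 1. The other, of 204 bases, stood at 10.6, 0.685 and 0 FPKM and at 0.239, 3.65 and 5.00 FPKM, where a count of 0 allowed up to 0.890 FPKM in low 3. It was highest of high ammonia in high 3, while the 3 genes of pattern 8 were so in high 2. Newly assembled loci, which the authors list apart with positions on scaffolds of a build that is not named, gave 2 of 1179 with a mean of at least 1 FPKM. One, with up to 4 exons in 2 transcripts, spans KB742693.1 from 3968 to 5405 on the minus strand and stood at 218, 1.76 and 5.17 FPKM in low 1, low 2 and low 3. In high 1, high 2 and high 3 it stood at 0.613, 59.2 and 29.1 FPKM, with r = 0.99. The SD over the 6 libraries of its log2 ratio to the gene of 1023 bases was 0.43. To the genes of 485 and 162 bases the SD of the log2 ratio was 1.05 and 1.19. The log2 levels had SDs of 3.02 for the gene of 1023 bases and 3.22 for the locus. This locus was chosen by its r with a mean that includes these genes, so ratios steadier than the levels follow from the choice. The other locus has 3 exons, spans KB749603.1 from 1350 to 2347 on the plus strand, and stood at 21.1, 0.183 and 0.237 FPKM in low ammonia and at 0.574, 9.65 and 4.94 FPKM in high ammonia. In its 3 lowest libraries it had 1, 1 and 3 counts. Whether these loci and genes are near each other or share sequence was not tested, and reads of near-identical copies cannot be told apart here.

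**Figure D4:**
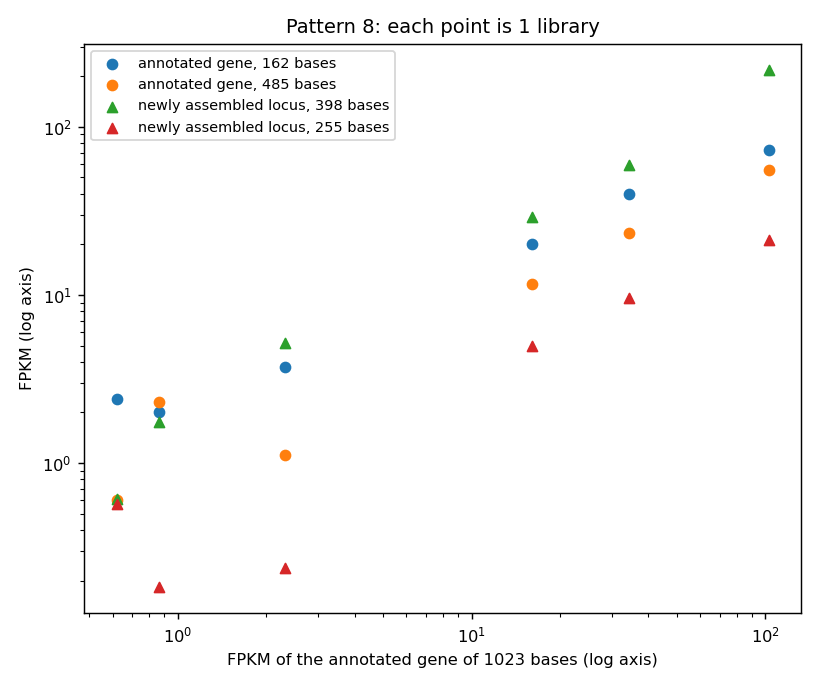
FPKM of 2 annotated genes (circles) and 2 newly assembled loci (triangles) against FPKM of the annotated gene of 1023 bases, on log axes, with 1 point per library and feature. The points fall into 3 libraries under 3 FPKM and 3 libraries from 16.1 to 103 FPKM on the x axis.

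Pattern 3 held the gene with the widest range within low ammonia among the 37. ENSAPLG00000013103 (807 bases) stood at 76.6, 1.85 and 672 FPKM in low 1, low 2 and low 3 and at 211, 3.05 and 103 FPKM in high 1, high 2 and high 3. Its ratio was 237 within low and 52.4 within high ammonia. The 2 lowest libraries rested on 32 and 33 counts, with 95% exact Poisson intervals of 1.26 to 2.61 and 2.10 to 4.28 FPKM. The gene of 96 bases stood at 27.4, 0 and 56.1 FPKM in low ammonia and at 28.5, 0 and 24.98 FPKM in high ammonia, from at most 89 counts. At its length a count of 0 allowed up to 1.46 FPKM in low 2 and 2.33 FPKM in high 2. Both genes were lowest in low 2 and high 2 and highest in low 3, with r = 0.98. The gene of 552 bases was looser, with r of 0.72 to each: it stood at 34.6, 1.86 and 27.8 FPKM in low ammonia and at 39.6, 1.35 and 1.30 FPKM in high ammonia, so high 3 joined the low class. All 3 stayed in 1 pattern in 6 of 12 other settings.

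Pattern 6 held 3 very short genes that were lowest in low 3 and in high 3. The gene of 168 bases stood at 151, 126 and 13.3 FPKM in low ammonia and at 119, 49.7 and 6.42 FPKM in high ammonia. The gene of 123 bases stood at 28.3, 16.7 and 0.984 FPKM and at 33.3, 4.24 and 0.9749 FPKM, and the gene of 68 bases at 12.5, 21.2 and 0 FPKM and at 25.8, 20.8 and 0.882 FPKM. In the last pair of genes the lowest values rest on 0 to 2 counts, and a count of 0 in low 3 allowed up to 2.67 FPKM at 68 bases. Low 3 and high 3 carry the same number, 18, in the labels, which do not say what it stands for. Low 3 and high 3 were together the lowest of their groups in 16.2% of all genes that met the rule, pattern 6 included. Among the other annotated genes of that range of mean FPKM this share was 15.3%. A link between the number and the pattern was not tested. The r of the 3 pairs ran from 0.83 to 0.95, and the 3 genes stayed together in all 12 other settings.

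Pattern 4 was lowest in low 1 and high 3. The gene of 433 bases stood at 5.39, 179 and 269 FPKM in low ammonia and at 103, 97.1 and 6.78 FPKM in high ammonia, a ratio of 42.3 within low and 13.3 within high. The gene of 1695 bases followed it closely (r = 0.97), at 2.83, 12.7 and 21.9 FPKM and at 11.98, 11.3 and 1.31 FPKM. The gene of 249 bases ranged less, at 35.4, 110 and 143 FPKM and at 186, 220 and 57.3 FPKM, and had its highest value in high 2 where the other pair had it in low 3. From a mean of 1 FPKM up, 29 annotated genes and 4 newly assembled loci had r of at least 0.95 with the mean of the pattern, 1 of each with a ratio of 3 in both groups. That locus, with 2 exons on the minus strand of KB751896.1 from 1 to 531, had r = 0.98. It stood at 0, 10.8 and 10.02 FPKM in low ammonia and at 16.3, 12.3 and 0 FPKM in high ammonia, where a count of 0 allowed up to 0.314 FPKM in low 1 and 0.444 FPKM in high 3.

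Pattern 5 was highest in high 2 and low in low 1, low 3 and high 3. The gene of 478 bases stood at 28.0, 127 and 40.7 FPKM in low ammonia and at 102, 171 and 45.2 FPKM in high ammonia. The gene of 2440 bases, the longest of the 37, stood at 7.16, 27.4 and 7.15 FPKM and at 30.8, 66.7 and 13.2 FPKM, and the gene of 1338 bases at 5.26, 20.1 and 4.07 FPKM and at 31.7, 44.0 and 5.47 FPKM. In each of the 3 genes low 2 was the highest of low ammonia and high 3 the lowest of high ammonia. The r ran from 0.94 to 0.96, all values rest on at least 90 counts, and the genes stayed together in all 12 other settings. The gene of 174 bases, of pattern 10, ran opposite to them, with r from -0.96 to -0.97; it stood at 39.5, 7.76 and 25.7 FPKM in low ammonia and at 5.33, 4.28 and 21.0 FPKM in high ammonia.

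Pattern 1, the largest, had 6 genes. All 6 were lowest of low ammonia in low 1, and 4 were lowest of high ammonia in high 1. Within high ammonia high 2 was the highest in all 6, and within low ammonia low 3 was the highest in 5. The gene of 1389 bases stood at 26.6, 245 and 203 FPKM in low ammonia and at 14.7, 275 and 115 FPKM in high ammonia, on 419 to 7310 counts. The gene of 180 bases stood at 6.60, 47.1 and 116 FPKM and at 2.44, 204 and 44.6 FPKM, with ratios of 15.5 and 59.6. These are the widest ratios of the pattern. The genes of 303 and 363 bases had the steadiest ratio among the pairs of this pattern, from 4.55 to 7.38 in the 6 libraries. The former stood at 26.7, 59.3 and 114 FPKM in low and at 24.5, 91.3 and 60.9 FPKM in high ammonia. The latter ran from 4.44 FPKM in low 1 to 19.7 FPKM in high 2. The genes of 756 and 951 bases (r = 0.92) were lowest in high ammonia in high 3 in place of high 1, at 10.5 and 5.55 FPKM, and peaked at 64.6 FPKM in low 3 and 26.6 FPKM in high 2.

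The libraries where pattern 1 was low, low 1 and high 1, are among the 3 libraries with the highest total counts, and high 2, where it was high, has the lowest total. The remaining one of those 3, low 2, has a higher total than high 1, and low 3, at 16516390 counts, has a lower one. High 3 has a total near that of low 3, at 16679497 counts. Totals were set against this pattern only. The mean over the 6 genes of log2(FPKM + 1), standardised per gene, was -1.11, 0.35 and 0.92 in low 1, low 2 and low 3. It was -1.03, 1.05 and -0.18 in high 1, high 2 and high 3. FPKM is scaled to the total, and the part of depth in the pattern was not tested. The r within pattern 1 ran from 0.71 to 0.97, and all 6 genes stayed together in 6 of 12 other settings, with at least 4 together in each. Of the other 4925 annotated genes, 11 had r of at least 0.95 with its mean and 4 had r of at most -0.95. From a mean of 1 FPKM up, 39 annotated genes, 1 of them with a ratio of 3 in both groups, and 6 of 1179 newly assembled loci, 0 with such a ratio, had r of at least 0.95. The closest, with r = 0.98, lies on KB747619.1 from 93 to 2473 on the plus strand and moved only between 1.39 FPKM in low 1 and 2.62 FPKM in high 2. The most abundant, on KB742431.1 from 419879 to 420425 on the minus strand, ran from 584 FPKM in high 1 to 937 FPKM in low 3.

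**Figure D5:**
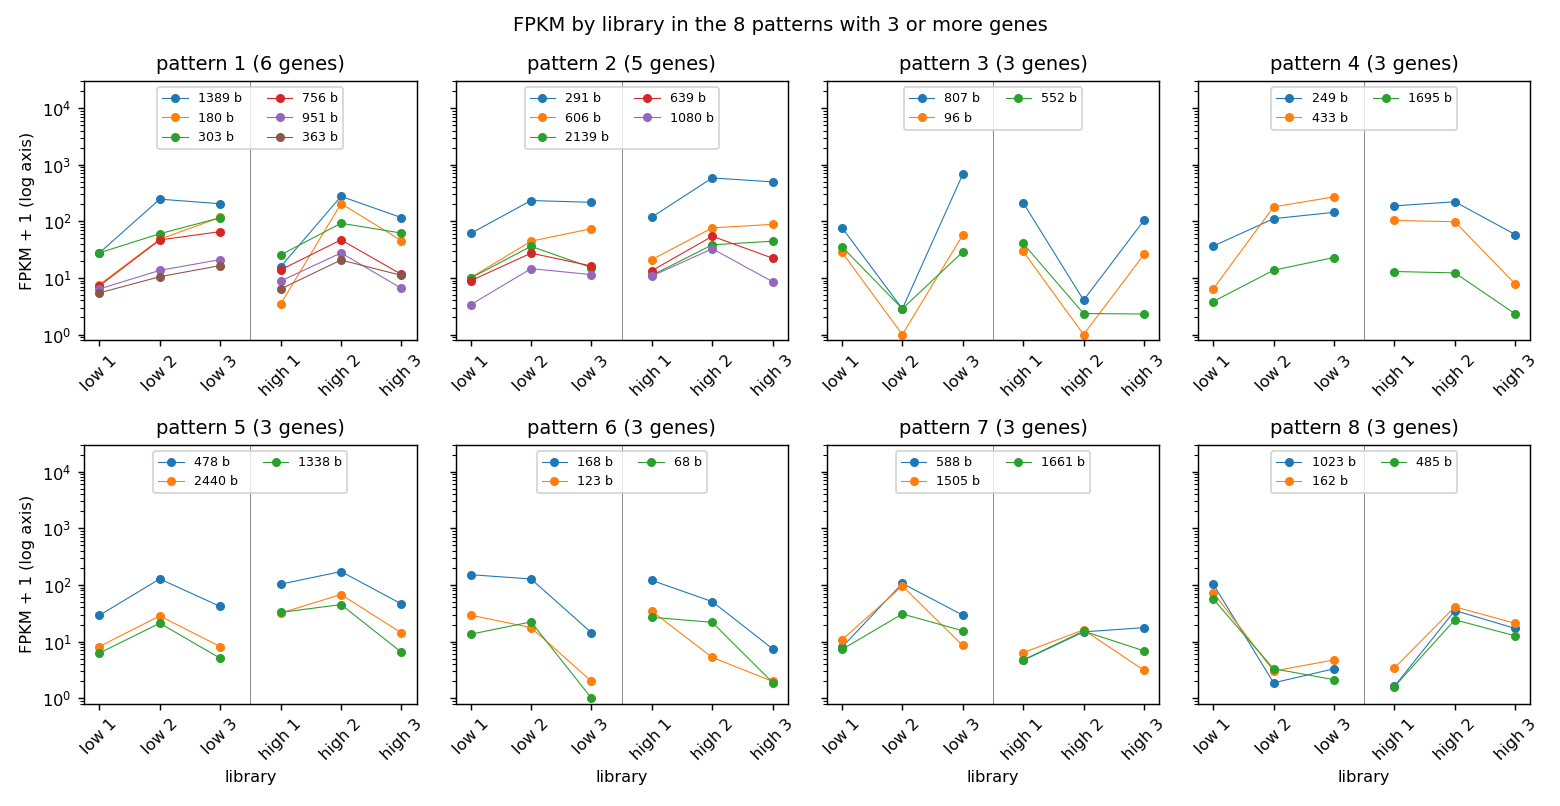
FPKM + 1 on a log axis in each of the 6 libraries for the 29 genes of the 8 patterns with 3 or more genes, with 1 colour per gene (named by recovered exon length, b for bases); lines join the libraries of a group only to help follow a gene. Patterns 3 and 8 fall to near 0 in some libraries of each group, as do the genes of 123 and 68 bases of pattern 6. The gene of 1695 bases of pattern 4 falls to 2.83 FPKM in low 1 and 1.31 FPKM in high 3. Patterns 2 and 5 range less, while the gene of 180 bases of pattern 1 runs from 2.44 to 204 FPKM within high ammonia.

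Pattern 2 had 5 genes that were lowest in low 1. ENSAPLG00000006414 (291 bases), with the highest mean of the 37 genes at 284 FPKM, stood at 59.9, 232 and 215 FPKM in low ammonia and at 118, 582 and 495 FPKM in high ammonia. The means of the groups were 169 ± 94.8 and 398 ± 247 FPKM (mean ± SD of 3 libraries), with a log2 difference of 1.16 and a limma adjusted p of 0.439. The gene of 606 bases followed it (r = 0.93), at 9.10, 43.5 and 73.0 FPKM and at 20.1, 75.5 and 87.4 FPKM. The gene of 2139 bases stood at 8.94, 35.1 and 14.2 FPKM and at 10.1, 37.5 and 43.5 FPKM, and across patterns it ran opposite to the gene of 552 bases (r = -0.99). The genes of 639 and 1080 bases peaked in high 2, at 53.4 and 31.7 FPKM, and were lowest in low 1, at 7.90 and 2.36 FPKM. This pattern held the lowest r of a pair within a pattern, 0.60, and stayed whole in 4 of 12 other settings. Its median r was 0.81, above the 0.72 of pattern 3. Newly assembled loci with r of at least 0.95 to its mean were 2 of 1179. They lie on KB745731.1 from 2772 to 4157 on the minus strand (17.8 FPKM in low 1, 24.8 FPKM in high 2) and on KB743352.1 from 790602 to 794058 on the plus strand (0.508 and 2.87 FPKM).

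Pattern 7 was set by low 2. The gene of 588 bases stood at 6.92, 105 and 28.3 FPKM in low ammonia and at 3.65, 13.8 and 16.6 FPKM in high ammonia, and the gene of 1505 bases at 9.69, 94.8 and 7.52 FPKM and at 5.35, 15.1 and 2.11 FPKM. The gene of 1661 bases ranged less, from 3.73 FPKM in high 1 to 29.7 FPKM in low 2. All 3 had their highest value in low 2. More of the other annotated genes shared this profile than any other of the 14, 46 of 4925 (0.934%) at r of at least 0.95, and low 2 was also the highest library for 33.1% of the other genes. From a mean of 1 FPKM up, 104 annotated genes and 3 newly assembled loci reached that r. Of both kinds, 0 had a ratio of 3 in both groups. The factor of low 2 in median-ratio scaling, 1.12, was the highest of the 6 libraries. The part of scaling in these shares was not tested. Without low 2 the 3 genes no longer formed 1 pattern, nor did they at a height of 0.2 or with values centred within groups.

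Of the genes outside these patterns, ENSAPLG00000016401 (1326 bases) had the widest range of the 37 genes within high ammonia. It stood at 2.94, 94.7 and 119 FPKM in low ammonia and at 503, 1.52 and 1.58 FPKM in high ammonia, from 27 counts in high 2 to 13677 in high 1. High 1 was thus the highest library and the other 2 of high ammonia the lowest. It joined no pattern, and its profile was opposite to those of the genes of 162 and 485 bases of pattern 8 (r = -0.91 for both). The genes of 897 and 234 bases formed pattern 9 (r = 0.91) and peaked in low 3, at 111 and 33.1 FPKM, and in high 2, at 108 and 29.6 FPKM. The gene of 720 bases, paired with that of 174 bases in pattern 10 (r = 0.76), stood at 42.6, 34.0 and 124 FPKM in low and at 19.0, 22.7 and 62.0 FPKM in high ammonia. Alone stood also the genes of 141 bases (5.58 FPKM in low 3 to 152 in high 1), 1437 bases (6.69 FPKM in high 2 to 58.6 in low 2) and 1305 bases (3.75 FPKM in low 2 to 25.8 in high 3).

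Over the 37 genes no single library was high or low throughout. Low 1 was the lowest of low ammonia in 19 of 37 genes (51.4%), against 47.1% of the other 4925 genes. High 2 was the highest of high ammonia in 20 of 37 (54.1%), against 43.9% of the others, and the lowest of high ammonia was high 3 in 16 (43.2%, others 49.0%) and high 1 in 14 (37.8%, others 27.2%). The highest of low ammonia was low 3 in 15 of 37 genes (40.5%, others 34.7%) and low 2 in 14 (37.8%, others 49.5%). These differences were not tested. The other genes ranged far less, with median ratios of 1.38 and 1.27, so their shares are not a like comparison. Factors of median-ratio scaling were 0.996, 1.12 and 1.04 in low 1, low 2 and low 3. In high 1, high 2 and high 3 they were 0.930, 1.02 and 0.898. The part of scaling in the shares of the other genes was not tested. Between 20 genes (low 1) and 29 genes (high 2) of the 37 reached 10 FPKM in a library, and between 3 and 6 genes stood under 3 FPKM. Markers of other cell types could not be given, since no identifier pairs with a symbol, so the part of blood, immune or neighbouring tissue in these values was not tested.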

How the data were processed

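Per the labels' protocols, RNA of frozen liver was taken up in Trizol and made into libraries with the TruSeq RNA kit, which does not keep strand. The deposited table gives FPKM, already scaled by the authors, with 1 column per library. The other deposited table holds the exons of newly assembled genes, with start and end counted from 1. Aligner, counter, build and annotation: not given in the sources used here. Library totals were recovered from newly assembled loci of 1 transcript, whose FPKM times exon length is a whole multiple of 1 step per library. With the mean transcript length, 100% of the values above 0 of these loci and of all other newly assembled genes were whole, with a tolerance of 0.01. For annotated genes the shortest length that made all values whole was taken, a search that returned the listed length for 99.1% of newly assembled genes with a value above 0 in all 6 libraries.

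The members, lists and tests were chosen with earlier results of these data known. Of 23440 identifiers, 0 matched the gene table used here (26024 genes), so planned marker and gene lists gave no result and are not reported. The rule for named genes was, per pattern, the 3 with the highest mean FPKM and the 2 with the largest smaller ratio, and the 3 on each side of the threshold; the other genes of the 37 were added.

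The contrast of high and low ammonia was fitted in R 4.3.3 with limma 3.58.1 (variance trend) to log2(FPKM + 1), a scale on which low genes change less than they do in FPKM, for genes of at least 1 FPKM in 3 libraries, 2-sided. Patterns came from average linkage on 1 - r. The scripts were tested on simulated data. Other steps ran in Python 3.11.15 with scipy 1.17.1, pandas 2.3.3, numpy 2.4.6 and, for figures, matplotlib 3.10.9. Alternatives were another pseudocount, scaling, filter, ratio, linkage, height and correlation, and each library left out. Patterns of 3 genes, and the rule from 300 bases up, were added after seeing the data.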

Additional observations from a re-analysis of the deposited data

How the results depend on the processing

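The rule found 62 genes with a ratio of 2.5 and 21 with a ratio of 4, from 17 to 26 without 1 library, 35 with median-ratio scaling (34 of the 37), 43 with 0.1 added and 26 among genes of at least 300 bases. Patterns of 4 or more genes held 11 genes, 4 at a height of 0.2, 19 at 0.4, 6 with complete linkage, 17 with a pseudocount of 0.1, 24 with values centred within groups and from 15 to 21 without 1 library. Patterns 4, 5, 6 and 8 stayed whole in all 12 settings, where a pattern that merged into a larger one counts as whole. The height of 0.4 can only merge patterns, so it could split none. Pairs with r of at least 0.9 numbered 19, 11 with Spearman's correlation, 35 with centred values and from 24 to 38 without 1 library. Newly assembled loci that followed patterns 1 and 2 numbered 8, and 1 at r of at least 0.98. limma called 92 of 11717 genes in all and 24 of 19528 with no filter on low values. Without 1 library it called from 8 to 56 of 11717. Of the 37 genes it called 0 in each of the 10 settings. The rule asked for overlapping groups with a wide spread, so nothing is read from that 0. An r over fewer libraries, or after group means are removed, reaches 0.9 more easily. Counts of pairs and of genes in patterns under those settings are therefore not like for like with the first counts. Why the other counts moved was not tested. The share of genes variable within low ammonia was 3.1%, 2.8% under median-ratio scaling and 3.45% with 0.1 added. Within high ammonia it was 2.36%, 2.26% and 2.72%, and within both groups 0.806%, 0.747% and 0.967%. All lay within 95% binomial intervals of the first shares. Such intervals take genes as independent and do not measure the effect of processing. The shares were not computed without 1 library. No paired analysis was run, as the labels name no pairs. Just 1 number in them, 18, occurs in both groups, and its meaning is not given. Depth limits the shortest genes, where the lowest values rest on 0 to 2 counts.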

Other observations

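Newly assembled loci that met the same rule of spread and overlap numbered 9 of 330 with a mean of 10 to under 1000 FPKM (2.73%), against 0.746% of annotated genes; this difference was not tested. The locus on KB742706.1 from 213298 to 215970, with up to 5 exons on the minus strand, stood at 0.278, 0.459 and 48.4 FPKM in low 1, low 2 and low 3 and at 11.9, 0.490 and 6.99 FPKM in high 1, high 2 and high 3. Like ENSAPLG00000013103 it was highest in low 3 and low in low 2 and high 2, but it was near 0 in low 1, where that gene stood at 76.6 FPKM. On KB818122.1 a locus of 2 exons from 4 to 947 stood at 45.4, 18.01 and 124 FPKM in low ammonia and at 17.7, 314 and 161 FPKM in high ammonia. A locus on KB743544.1 from 258505 to 258926 stood at 12.03, 2.35 and 35.5 FPKM and at 2.60, 0.838 and 11.6 FPKM.

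The 3 annotated genes that were as variable within both groups but whose groups lay apart were not among the 37. They are 3 of the 40 genes variable within both groups. Of all 4962 annotated genes in that range of FPKM, 1251 (25.2%) had groups that lay apart. One, of 124 bases, stood at 8.55, 35.7 and 17.1 FPKM in low ammonia and at 42.1, 56.5 and 138 FPKM in high ammonia. Another, of 794 bases, stood at 8.22, 28.1 and 8.77 FPKM in low ammonia and at 104, 162 and 42.4 FPKM in high ammonia. The one of 1104 bases ran from 568 to 2876 FPKM in low and from 16.9 to 98.7 FPKM in high ammonia.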
